A study of Homo sapiens with 6 samples.

Results

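The genes described here are 43 genes of S phase and DNA replication, taken by name as the loaders, subunits and partners of the replication machinery, out of 60612 gene IDs counted in each RNA-seq library of KO52 cells. All 43 were found by symbol, and all 43 passed the filter on low counts. KO52 is a human acute myeloid leukaemia (AML) cell line that the labels give as a CEBPA double mutant, and all 6 libraries carry that genotype. In the dnCEBP group (2 libraries) cells held a lentiviral vector that doxycycline switches on to make a dominant negative C/EBP peptide, which pairs with C/EBP proteins and keeps them off DNA. In the dnFOS group (2 libraries) the same kind of vector carried a dominant negative FOS peptide, which does so with members of the AP-1 family. The EV group (2 libraries) carried the empty vector, which expresses GFP. Per the study's text, transduced cells were given doxycycline and sorted for GFP before RNA-seq, and no group is set apart in this. The labels do not state the length of induction, which the study's text states for dnCEBP beside its chromatin assay and not for the dnFOS and EV libraries. All groups come from 1 cell line, and nothing in the labels says that replicates were separate cultures, so p-values measure the spread between these libraries, which may be technical.

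A cell may copy its genome only once per cycle. In G1 the origin recognition complex, CDC6 and CDT1 load the hexameric MCM2-7 helicase onto DNA, and at the start of S phase kinases and loading factors add CDC45 and the GINS complex so that the helicase starts to unwind. Polymerases, the PCNA clamp and its loaders then copy both strands while histone chaperones rebuild chromatin behind the fork. Many of these genes are transcribed in a wave at the G1/S boundary under E2F factors, so their RNA is widely read as a sign of cycling cells. In bulk RNA, more cells in S phase and more RNA per S phase cell cannot be told apart. The study reports that both peptides lowered the growth of KO52 cells, and growth was not measured in these libraries.

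Total counts ran from 9862994 to 27663179 per library, and the dnFOS libraries were the shallowest, with 14583615 and 9862994 counts against 21681121 or more in each of the other 4. The members were counted 106 to 4677 times in a library. Values are given as CPM, that is, counts brought to a common library size scaled by the trimmed mean of M-values (TMM). The blast genes CD34, KIT, CD33, MPO, SPI1 and CEBPA were detected in every library, while CD3E, HBA1 and COL1A1, markers of other cells, held 0 to 5 counts. Further genes looked up for other cells were CD79A at 0.781 to 1.64 CPM, HBB at 0.580 to 2.48 CPM, EPCAM at 27.7 to 37.6 CPM and PECAM1 at 62.6 to 77.5 CPM. Their RNA in a single cell line was not taken as a sign of other cells. Summed over the 43 members, the libraries held 2333 and 2191 CPM in EV, 2211 and 2196 CPM in dnCEBP, and 2473 and 2397 CPM in dnFOS.

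E2F factors act on these genes through sites in their promoters, so the letters of the E2F site and of the sites of both blocked families were looked up. RefSeq (GRCh38.p14) gave 47 start sites for 34 of the 43 members, and the 250 bases before each were read. The E2F letters TTTCCCGC, TTTCGCGC, TTTGCCGC or TTTGGCGC, on either strand, stood in 16 of the 47 windows (34.0%), those of 15 members, against 979 of 35116 windows of all genes (2.79%). They occurred 22 times, 16 of them within 100 bases of the start, and hits can overlap each other. The AP-1 letters TGANTCA stood in 0 of 47 windows (6.57% of all windows) and the C/EBP letters TTGCNNAA in 2 (4.26%, against 9.05% of all windows). CCAAT stood in 31 (66.0%, against 32.0%). A match is a description of the letters and not of binding, and windows of 1 gene can overlap. The windows of all genes were not matched to those of the members for base composition. Sites outside these 250 bases, such as distal elements, were not read.

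2 whole windows are shown because HELLS and MCM6 carried the calls that held in every fit made without 1 library. Capitals mark the E2F letters, each line reads 5′ to 3′ on the gene's strand, and the last base is the one before the start site. The HELLS window (chr10:94545538-94545787, plus strand) lay in an intron of HELLS transcripts with an earlier start in GENCODE 29, and the MCM6 window (chr2:135876444-135876693, minus strand) held no annotated gene.
HELLS: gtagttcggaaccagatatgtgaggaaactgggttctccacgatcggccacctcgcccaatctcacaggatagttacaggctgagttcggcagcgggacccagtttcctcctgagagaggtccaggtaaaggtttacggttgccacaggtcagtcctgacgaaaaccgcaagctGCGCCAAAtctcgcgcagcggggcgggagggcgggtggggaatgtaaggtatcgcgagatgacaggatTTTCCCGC
MCM6: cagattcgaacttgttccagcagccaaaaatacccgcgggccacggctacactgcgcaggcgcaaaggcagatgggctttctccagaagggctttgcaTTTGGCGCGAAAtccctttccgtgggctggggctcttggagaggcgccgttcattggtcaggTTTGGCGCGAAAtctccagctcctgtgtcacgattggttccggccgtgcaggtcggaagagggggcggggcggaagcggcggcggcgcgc

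In HELLS 1 of the matches ended at the last base before the start site, and in MCM6 the 2 capital runs were each a pair of overlapping matches on opposite strands. Of the other members called in any comparison below, PCNA, TIPIN, CDCA7 and UHRF1 held the E2F letters too. Their matches are shown with at most 30 bases, so that the core can be set beside those above. They lay on chr20:5126663-5126692 (minus strand, in no annotated gene), chr15:66356731-66356760 (minus strand, intron of TIPIN), chr2:173354796-173354825 (plus strand, reaching into an annotated CDCA7 exon) and, for 2 UHRF1 start sites, chr19:4909476-4909500 (plus strand, overlapping an annotated exon) and chr19:4909973-4910002 (plus strand, intron).
PCNA: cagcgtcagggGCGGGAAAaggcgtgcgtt
TIPIN: ccgcacggaTTTGGCGCCAAAcgctgcggg
CDCA7: tgtgtcccaacGCGGGAAAgacagcccgag
UHRF1, upstream start: gccgagttttcGCGGGAAAaaaatc
UHRF1, downstream start: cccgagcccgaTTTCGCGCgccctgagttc

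The windows read for BRIP1, RAD51AP1, NASP, SLBP and ORC1, which were also called, held none of the 4 E2F words, so members with and without these letters stood among those that moved. WDR76, E2F8 and MCM4 had no window in the table.

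The first question was whether blocking C/EBP or AP-1 binding changed the RNA of the replication genes, compared with EV. With the dnCEBP peptide 0 of 43 members passed an adjusted p of 0.05 in edgeR's quasi-likelihood test, where 1.07% of all 15395 genes tested did (0.624% higher and 0.448% lower). At an unadjusted p under 0.05 there were 5 members. The share of all genes at that threshold was not taken, so this count is not read further. DESeq2 and limma-voom called 0 members at an adjusted p under 0.05 as well. With the dnFOS peptide 8 members were called (18.6% of 43, where 15.0% of all genes tested were), 7 higher and 1 lower. The share called was thus near that of all genes. The directions were 7 of 43 higher where 7.24% of all genes were called higher, and 1 of 43 lower where 7.76% were. Without EV replicate 2 the count was 2, without dnFOS replicate 2 it was 3 and without EV replicate 1 it was 4. With library totals as the scale, which moved the median of all genes to 0.10, 15 members were called, all 15 higher, and 73.8% of all called genes were higher in place of 48.3%. With replicate number added to the fit as a block, 16 members were called, 14 higher and 2 lower. That block also raised the calls over all 15395 genes, from 2309 to 3172.

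The median log2 fold change over the members was 0.0053 for dnCEBP and 0.13 for dnFOS, and over all genes tested it was -0.0022 and 0.0040. The dnFOS median was 0.08 without dnFOS replicate 1. In dnFOS both libraries lay above both EV libraries for 22 members (51.2%, where 28.3% of all genes did), below both for 5 (28.4% of all genes) and among them for 16. In dnCEBP the same counts were 10 above (21.9% of all genes), 11 below (20.9% of all genes) and 22 overlapping. By library, the median log2 distance of the members from their EV mean was 0.17 and 0.08 in the dnFOS libraries, 0.0029 and 0.0076 in the dnCEBP libraries, and 0.05 and -0.05 in the EV libraries. The fold changes were small throughout, from 0.795 to 1.62 in dnFOS and from 0.795 to 1.26 in dnCEBP.

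**Figure D1:**
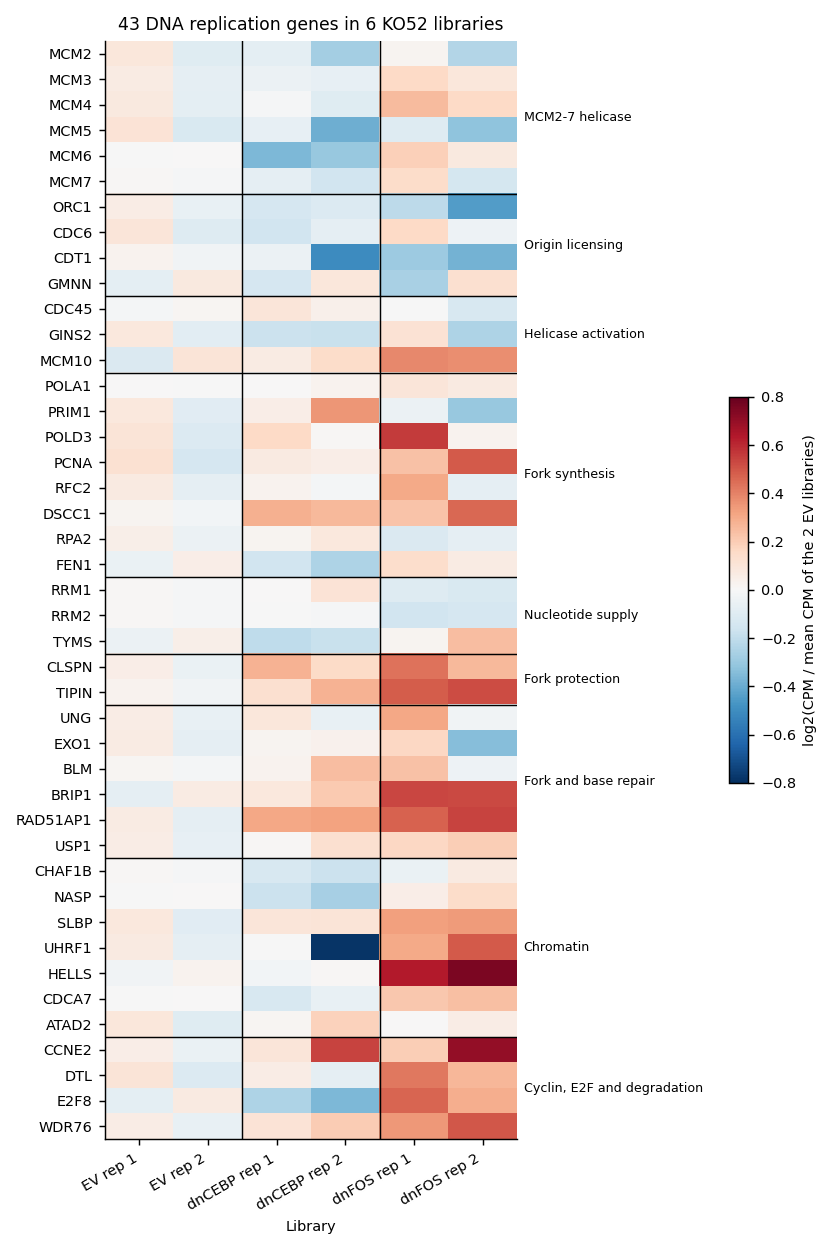
Level of each of the 43 members (rows, grouped by role) in each of the 6 libraries (columns), as the log2 ratio of its CPM to the mean CPM of the 2 EV libraries. HELLS was 0.69 above EV on the fitted log2 scale in dnFOS and -0.01 in dnCEBP, and ORC1 and CDT1 were blue in both dnFOS libraries while most chromatin, repair and control genes were red.

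The second question was whether the peptides differed from each other, which the contrast of dnFOS against dnCEBP tests directly. In that contrast 9 members were called (20.9%, where 14.7% of all genes tested were), and all 9 were higher in dnFOS, where 6.83% of all genes were called higher and 7.84% lower. Both dnFOS libraries lay above both dnCEBP libraries for 22 members (28.6% of all genes) and below them for 6 (25.9% of all genes). The median log2 difference was 0.14, against 0.02 over all genes. It was 0.21 without dnFOS replicate 2, where 4 members were called, and 3 were called without dnCEBP replicate 2. With library totals 17 were called, all 17 higher, and 74.6% of all called genes were higher in place of 46.6%. The comparisons with EV share the EV libraries and this contrast shares a group with each, so the 3 are not independent.

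**Figure D2:**
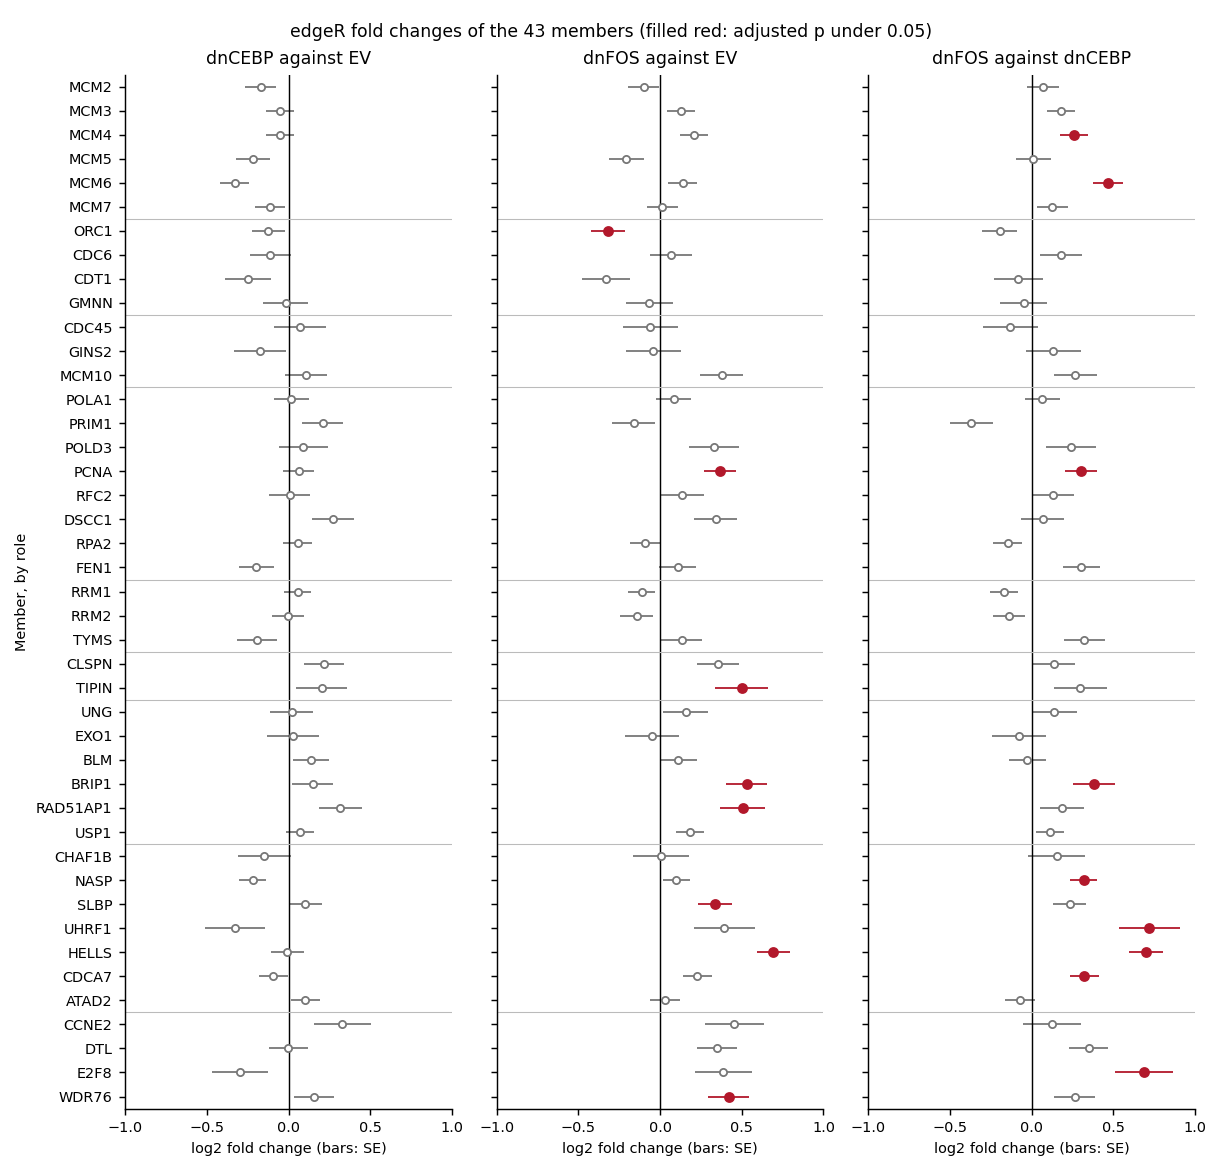
Fitted log2 fold change of each member (rows, by role) in the 3 comparisons, with bars of 1 SE and filled red points at an adjusted p under 0.05. The left panel has 0 filled points, the middle 8, of which ORC1 alone lies below 0, and the right 9, all above 0.

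Of the MCM2-7 subunits, which form the ring of the replicative helicase, none was called against EV with either peptide in the main fit, and MCM6 and MCM4 were higher in dnFOS than in dnCEBP. MCM6 (ENSG00000076003, chromosome 2, 135839626 to 135876426) was measured at 69.3 and 69.8 CPM in EV, 54.3 and 56.3 CPM in dnCEBP and 79.4 and 73.4 CPM in dnFOS. The 3 groups did not overlap, with dnCEBP lowest and dnFOS highest. Its log2 difference was 0.47 ± 0.09 SE (adjusted p = 0.000574) for dnFOS against dnCEBP, and this call held without any 1 library. Against EV it was -0.33 ± 0.09 SE (adjusted p = 0.0671) for dnCEBP and 0.14 ± 0.09 SE (adjusted p = 0.344) for dnFOS. The dnCEBP value passed the threshold in 6 of the settings tried, for example when only the 4 libraries compared were fitted (-0.34, adjusted p = 0.0420) and without dnFOS replicate 1 (-0.33, adjusted p = 0.0249) or dnFOS replicate 2 (-0.33, adjusted p = 0.0302).

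MCM4 was at 175 and 157 CPM in EV, 166 and 155 CPM in dnCEBP and 199 and 186 CPM in dnFOS, with both dnFOS libraries above the other 4, and differed between the peptides by 0.26 ± 0.09 SE (adjusted p = 0.0397). That call was lost without any of 5 libraries, with adjusted p from 0.0555 without EV replicate 1 to 0.220 without dnCEBP replicate 2, and in 4 other settings, DESeq2 among them (0.25, adjusted p = 0.0555). MCM3 was at 136 and 124 CPM in EV, 126 and 124 CPM in dnCEBP and 145 and 138 CPM in dnFOS. MCM2 was at 161 and 141 CPM in EV, 143 and 125 CPM in dnCEBP and 153 and 128 CPM in dnFOS, and the groups overlapped. MCM5 was at 113 and 96.5 CPM in EV, 100.2 and 79.9 CPM in dnCEBP and 97.5 and 83.8 CPM in dnFOS, and MCM7 at 90.9 and 89.4 CPM in EV, 85.6 and 80.9 CPM in dnCEBP and 99.9 and 81.6 CPM in dnFOS. Both overlapped between EV and dnFOS. Set beside the EV library of the same replicate number, each dnFOS library was lower for MCM2 and MCM5. Fold changes against EV ran from -0.21 to 0.21 in dnFOS and from -0.33 to -0.05 in dnCEBP, where all 6 were below 0 and none was called in the main fit. In dnFOS against EV, MCM4 was called with library totals (0.31, adjusted p = 0.0132) and with a replicate block (0.21, adjusted p = 0.0385). MCM5 was called lower with that block (-0.21, adjusted p = 0.0383). Some of the exon bases of MCM2 (23.6%) are shared with genes on the other strand, and use of strand in the counting was not given, so its counts are uncertain.

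Per kilobase of exon the subunits were not at equal levels, although the ring holds each of them in equal number. In EV, MCM3 was highest at 33.9 and 37.3 CPM per kb and MCM5 lowest at 13.1 and 15.4. Between them stood MCM2 at 28.7 and 32.8, MCM4 at 22.6 and 25.2, MCM7 at 20.4 and 20.7 and MCM6 at 16.8 and 17.0. In EV the highest subunit stood 2.42 and 2.58 times above the lowest, in dnCEBP 2.62 and 3.13 times, and in dnFOS 2.996 and 3.32 times. Exon length was the union over all annotated isoforms, so a level per kb is low for a gene with many unused exons. In dnCEBP the MCM6 values (13.2 and 13.7) overlapped those of MCM5 (10.9 and 13.7), while in EV and dnFOS they stood above them.

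**Figure D3:**
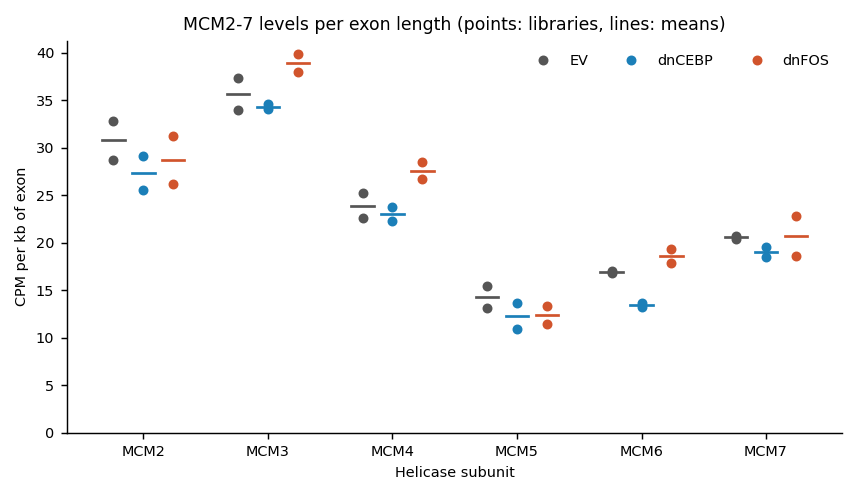
CPM per kb of exon for the 6 helicase subunits (x axis), with 2 libraries per group as points and their mean as a line, grey for EV, blue for dnCEBP and orange for dnFOS. MCM6 in dnCEBP sits below the EV and dnFOS libraries, and the order of the group means, MCM3, MCM2, MCM4, MCM7, MCM6 and MCM5, is the same in the 3 groups.

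The licensing genes held the single call to a lower level, and their median log2 difference lay below 0 in the 3 comparisons (-0.12, -0.19 and -0.06, in the order dnCEBP against EV, dnFOS against EV and dnFOS against dnCEBP). ORC1 (ENSG00000085840, chromosome 1, 52372829 to 52404459), the largest subunit of the origin recognition complex and the member of it that comes and goes with the cycle, was at 59.0 and 54.3 CPM in EV, 51.5 and 52.4 CPM in dnCEBP and 48.9 and 41.5 CPM in dnFOS. Both dnFOS libraries lay below the other 4. It fell by 0.32 ± 0.10 SE on the log2 scale in dnFOS against EV (adjusted p = 0.0366). The call was lost with library totals as the scale (-0.22, adjusted p = 0.150), with limma-voom (-0.31, adjusted p = 0.0525), without dnFOS replicate 2 (-0.21, adjusted p = 0.322), and without EV replicate 1 (-0.26, adjusted p = 0.293) or EV replicate 2 (-0.39, adjusted p = 0.0527).

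CDT1, which loads the helicase together with CDC6 and is destroyed once S phase starts, was at 23.4 and 22.4 CPM in EV, 22.2 and 16.2 CPM in dnCEBP and 18.8 and 17.6 CPM in dnFOS. Both peptide groups lay below EV, and neither difference was called (-0.25 ± 0.14 SE, adjusted p = 0.516 for dnCEBP and -0.33 ± 0.15 SE, adjusted p = 0.140 for dnFOS). CDC6 was at 27.4 and 23.9 CPM in EV, 23.1 and 24.4 CPM in dnCEBP and 28.7 and 24.9 CPM in dnFOS. GMNN, geminin, the inhibitor of CDT1, was at 20.9 and 23.3 CPM in EV, 20.2 and 23.6 CPM in dnCEBP and 18.5 and 24.2 CPM in dnFOS. For CDC6 and GMNN the peptide groups overlapped EV, and their log2 differences from EV lay between -0.11 and 0.07.

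The factors that turn the loaded ring into a running helicase, CDC45, GINS2 and MCM10, were at 10.2 to 25.9 CPM, among the lower levels of the set. None was called. MCM10, which acts as the helicase starts, had both dnFOS libraries above the other 4 and the largest difference of the 3 (0.38 ± 0.13 SE, adjusted p = 0.0525, dnFOS against EV). CDC45 and GINS2 lay at -0.06 and -0.04 in the same comparison, with overlapping libraries.

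Among the 8 genes of DNA synthesis at the fork, PCNA was called in both comparisons with dnFOS and the other 7 in none. PCNA (ENSG00000132646, chromosome 20, 5114953 to 5126626), the sliding clamp that holds polymerases on DNA, was at 86.7 and 72.7 CPM in EV, 83.8 and 82.7 CPM in dnCEBP and 94.0 and 112 CPM in dnFOS. Both dnFOS libraries lay above the other 4. The log2 differences were 0.36 ± 0.10 SE (adjusted p = 0.0105) against EV and 0.30 ± 0.10 SE (adjusted p = 0.0330) against dnCEBP, while dnCEBP and EV overlapped. The value against EV was smaller and not called without dnFOS replicate 2 (0.24, adjusted p = 0.209) or EV replicate 2 (0.23, adjusted p = 0.229). The value against dnCEBP was lost without dnFOS replicate 2 (0.17, adjusted p = 0.391), dnCEBP replicate 1 (0.31, adjusted p = 0.110) or dnCEBP replicate 2 (0.29, adjusted p = 0.127), and with DESeq2 (0.29, adjusted p = 0.0823) and limma-voom (0.29, adjusted p = 0.0506).

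The other 7 (the primase-polymerase genes POLA1 and PRIM1, the polymerase delta subunit POLD3, the clamp loaders RFC2 and DSCC1, the single-strand binding subunit RPA2 and the flap nuclease FEN1) were at 16.3 to 81.1 CPM. Their differences from EV ran from -0.16 to 0.34 in dnFOS and from -0.20 to 0.27 in dnCEBP. PRIM1 went the other way from most members between the peptides, with both dnFOS libraries below both dnCEBP libraries (-0.37 ± 0.13 SE, adjusted p = 0.0560), and was called in 9 of the settings tried, for example when only the 4 libraries compared were fitted (-0.38, adjusted p = 0.0282). Of its exon bases 21.6% are shared with other genes.

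The genes of nucleotide supply showed no call. RRM2, the S phase subunit of ribonucleotide reductase, was at 51.7 and 50.8 CPM in EV, 51.2 and 51.0 CPM in dnCEBP and 46.2 and 46.7 CPM in dnFOS, with both dnFOS libraries below the other 4 and a difference from EV of -0.14 ± 0.10 SE (adjusted p = 0.379). Its partner RRM1 was at 120.0 to 141 CPM and lay at -0.11 in dnFOS against EV, again with both dnFOS libraries below both EV libraries. TYMS, thymidylate synthase, was at 25.7 and 27.5 CPM in EV, 23.1 and 23.5 CPM in dnCEBP and 27.0 and 31.6 CPM in dnFOS, and its largest difference was 0.32 ± 0.13 SE (adjusted p = 0.0835) for dnFOS against dnCEBP. The counts of RRM2 and TYMS are uncertain, since 20.2% and 46.6% of their exon bases are shared with other genes.

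Both fork protection genes had their dnFOS libraries above the EV libraries, as 28.3% of all genes did. Of the 2, 1 was called higher, as 7.24% of all genes were. TIPIN (ENSG00000075131, chromosome 15, 66336206 to 66386746), which with TIMELESS steadies the paused fork, was at 10.5 and 10.1 CPM in EV, 11.2 and 12.5 CPM in dnCEBP and 14.4 and 14.8 CPM in dnFOS and rose by 0.50 ± 0.16 SE (adjusted p = 0.0363) on the log2 scale in dnFOS against EV. Its call was lost without any 1 EV or dnFOS library (adjusted p from 0.0942 without dnFOS replicate 1 to 0.161 without EV replicate 2), with DESeq2 (0.49, adjusted p = 0.0638), with no filter on low counts (0.49, adjusted p = 0.0548), and after a trend on GC content and exon length was removed (0.39, adjusted p = 0.0829). CLSPN, claspin, an adaptor of the replication checkpoint, ran from 20.9 to 29.3 CPM and was not called (0.35 ± 0.13 SE, adjusted p = 0.0608). Of the TIPIN exon bases 21.0% are shared with another gene.

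In the repair genes 2 of 6 were called higher against EV in dnFOS, where 7.24% of all genes were. BRIP1 (ENSG00000136492, chromosome 17, 61681266 to 61863521), a helicase that works with BRCA1 on damaged forks, was at 19.6 and 21.6 CPM in EV, 21.9 and 23.8 CPM in dnCEBP and 29.8 and 29.7 CPM in dnFOS. The dnFOS libraries lay above the other 4 and close to each other. It rose by 0.53 ± 0.13 SE (adjusted p = 0.00482) on the log2 scale against EV and by 0.38 ± 0.13 SE (adjusted p = 0.0389) against dnCEBP. The call against EV was lost without EV replicate 1 (0.46, adjusted p = 0.0851) and with the GC and length trend removed (0.29, adjusted p = 0.0905). The call against dnCEBP was lost without any of 5 libraries, with adjusted p from 0.0516 without EV replicate 2 to 0.215 without dnCEBP replicate 1, and with DESeq2 (0.37, adjusted p = 0.0706), with no filter on low counts (0.36, adjusted p = 0.0722) and with the trend removed (0.23, adjusted p = 0.177). RAD51AP1 (ENSG00000111247, chromosome 12, 4538798 to 4560048), which acts in homologous recombination, was at 16.7 and 15.2 CPM in EV, 19.8 and 19.9 CPM in dnCEBP and 22.1 and 23.2 CPM in dnFOS, so that the 3 groups did not overlap and dnCEBP stood between. It rose by 0.50 ± 0.14 SE (adjusted p = 0.0121) against EV in dnFOS, a call lost without dnFOS replicate 2 (0.47, adjusted p = 0.0817) or EV replicate 2 (0.43, adjusted p = 0.122), and with the GC and length trend removed (0.21, adjusted p = 0.302).

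UNG, EXO1, BLM and USP1, which act in uracil removal, end resection, DNA unwinding and the removal of ubiquitin from PCNA, were at 11.2 to 168 CPM and were called in none. Their differences from EV lay from -0.05 to 0.18 in dnFOS.

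The chromatin genes held the largest differences among the members, HELLS in dnFOS against EV and UHRF1 in dnFOS against dnCEBP. HELLS (ENSG00000119969, chromosome 10, 94501434 to 94613905), a remodelling ATPase needed for DNA methylation, was at 39.3 and 40.8 CPM in EV, 39.4 and 40.3 CPM in dnCEBP and 62.3 and 67.5 CPM in dnFOS. Both dnFOS libraries lay far above the other 4, which ran from 39.3 to 40.8 CPM. HELLS rose by 0.69 ± 0.10 SE (adjusted p = 2.68e-05) on the log2 scale against EV (1.62-fold) and by 0.70 ± 0.10 SE (adjusted p = 1.34e-05) against dnCEBP, and lay at -0.01 ± 0.10 SE (adjusted p = 0.987) in dnCEBP against EV. Both dnFOS calls held without any 1 library and in every other setting tried, with log2 values of 0.64 to 0.75 and 0.64 to 0.76 without 1 library. Removing the GC and length trend lowered the value against EV to 0.46 (adjusted p = 0.000479).

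CDCA7, the zinc finger partner of HELLS, had its highest levels in dnFOS too. CDCA7 (ENSG00000144354, chromosome 2, 173354820 to 173368997) was at 66.2 and 66.5 CPM in EV, 60.7 and 63.7 CPM in dnCEBP and 77.2 and 78.3 CPM in dnFOS. The 3 groups did not overlap. It differed between the peptides by 0.32 ± 0.09 SE (adjusted p = 0.0134), lost without dnCEBP replicate 1 (0.29, adjusted p = 0.117) or dnFOS replicate 2 (0.31, adjusted p = 0.0656), and against EV by 0.23 ± 0.09 SE (adjusted p = 0.0841), which was not called.

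UHRF1 (ENSG00000276043, chromosome 19, 4903080 to 4962154), which reads hemimethylated DNA behind the fork and brings in DNMT1, was at 17.9 and 16.2 CPM in EV, 17.1 and 9.90 CPM in dnCEBP and 21.0 and 24.0 CPM in dnFOS. Both dnFOS libraries were highest, and the dnCEBP libraries were far apart. The difference between the peptides was 0.72 ± 0.19 SE (adjusted p = 0.0121). It moved to 1.18 (adjusted p = 7.25e-05) without dnCEBP replicate 1 and to 0.39 (adjusted p = 0.150) without dnCEBP replicate 2, and was lost too without dnFOS replicate 2 (0.63, adjusted p = 0.0967), so its size rests on which dnCEBP library is kept. In dnCEBP against EV it was -0.33 ± 0.18 SE (adjusted p = 0.516), and passed the threshold without dnCEBP replicate 1 (-0.79, adjusted p = 0.0214).

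The histone-side genes split between the comparisons. NASP (ENSG00000132780, chromosome 1, 45583846 to 45618904), a chaperone of free histone H3, was at 195 and 196 CPM in EV, 173 and 162 CPM in dnCEBP and 203 and 216 CPM in dnFOS, with dnCEBP lowest. It was higher in dnFOS than in dnCEBP (0.32 ± 0.08 SE, adjusted p = 0.00920), a call lost without dnCEBP replicate 2 (0.27, adjusted p = 0.0941) or dnFOS replicate 2 (0.27, adjusted p = 0.0582), and lay at 0.10 ± 0.08 SE (adjusted p = 0.476) against EV. SLBP (ENSG00000163950, chromosome 4, 1692800 to 1712555), which binds the stem-loop at the end of histone mRNAs, was at 47.1 and 41.7 CPM in EV, 47.5 and 47.7 CPM in dnCEBP and 55.8 and 56.2 CPM in dnFOS. Its dnFOS libraries lay above the other 4, and it rose by 0.33 ± 0.10 SE (adjusted p = 0.0256) against EV. That call was lost without dnFOS replicate 1 (0.34, adjusted p = 0.0532), dnFOS replicate 2 (0.33, adjusted p = 0.0854) or EV replicate 2 (0.24, adjusted p = 0.285). CHAF1B, a subunit of the chromatin assembly factor, and ATAD2, a chromatin ATPase, lay at 0.00 and 0.03 in dnFOS against EV.

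All 4 control genes had both dnFOS libraries above both EV libraries, as 28.3% of all genes did, and 1 was called higher against EV, as 7.24% of all genes were. WDR76 (ENSG00000092470, chromosome 15, 43826963 to 43868419), a WD-repeat protein, was at 23.0 and 21.2 CPM in EV, 23.8 and 25.4 CPM in dnCEBP and 28.1 and 31.1 CPM in dnFOS. It rose by 0.42 ± 0.13 SE (adjusted p = 0.0232) against EV, a call lost without dnFOS replicate 2 (0.35, adjusted p = 0.183), EV replicate 1 (0.48, adjusted p = 0.0706) or EV replicate 2 (0.35, adjusted p = 0.176), and with the GC and length trend removed (0.28, adjusted p = 0.0988). E2F8 (ENSG00000129173, chromosome 11, 19224063 to 19241620), a repressor of the E2F family that acts late in S phase, was at 9.23 and 10.3 CPM in EV, 8.21 and 7.58 CPM in dnCEBP and 13.5 and 11.9 CPM in dnFOS. The 3 groups did not overlap, and dnFOS exceeded dnCEBP by 0.69 ± 0.18 SE (adjusted p = 0.00779), lost without dnFOS replicate 1 (0.59, adjusted p = 0.0901) and at the threshold without dnCEBP replicate 2 (0.63, adjusted p = 0.05001). CCNE2, cyclin E2, which drives entry into S phase, was at 11.6 and 10.8 CPM in EV, 12.0 and 16.3 CPM in dnCEBP and 12.8 and 18.2 CPM in dnFOS, with the replicates of each peptide far apart, and it was not called (0.45 ± 0.18 SE, adjusted p = 0.0897 in dnFOS and 0.33 ± 0.17 SE, adjusted p = 0.467 in dnCEBP). DTL, the receptor through which CDT1 is degraded on PCNA, lay just outside the threshold in both dnFOS comparisons (0.35 ± 0.12 SE, adjusted p = 0.0511 against EV and 0.35 ± 0.12 SE, adjusted p = 0.0501 against dnCEBP). Of the CCNE2 exon bases 37.1% are shared with genes on the other strand, INTS8 among them.

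**Figure D4:**
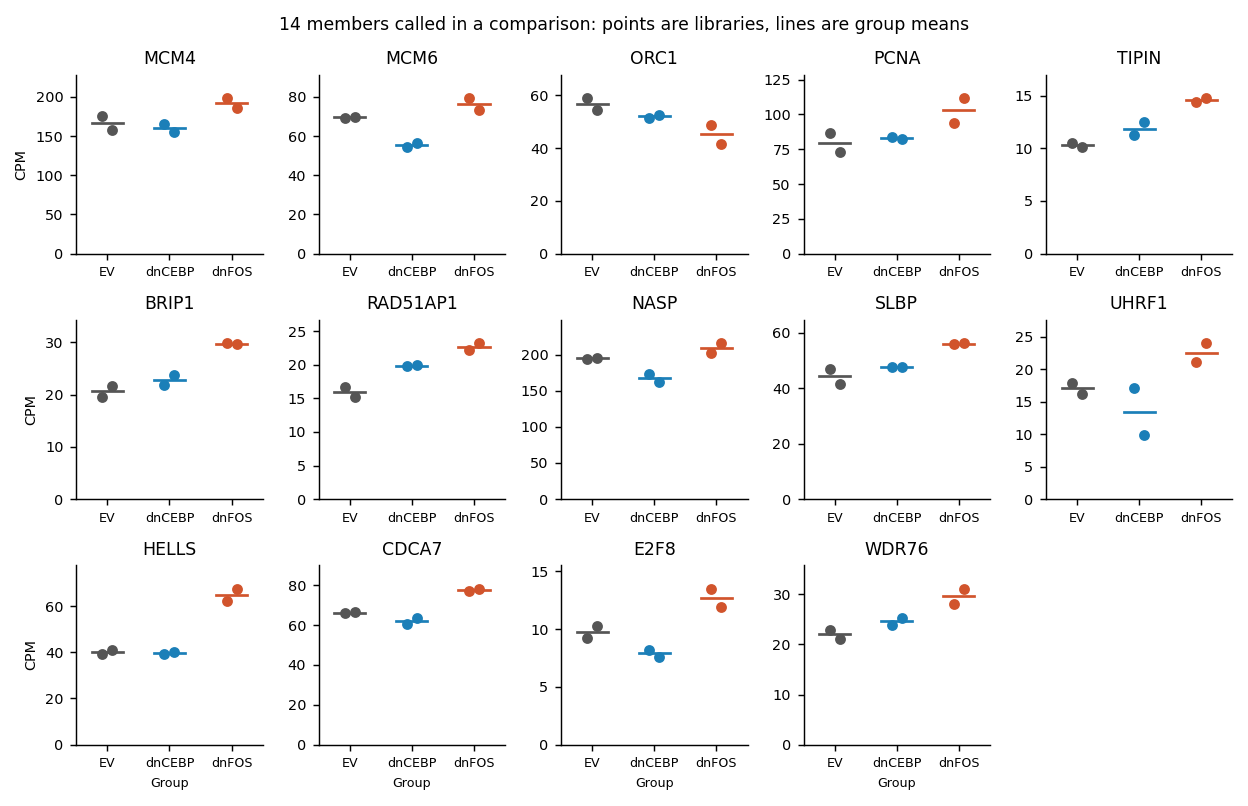
CPM of the 14 members called in any comparison, 1 panel each, with points for libraries and lines for group means (EV grey, dnCEBP blue, dnFOS orange, y axes from 0). The dnFOS libraries lie above those of EV and dnCEBP in every panel but that of ORC1, where they lie below.

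The dnFOS libraries were the shallowest, and some calls changed once a trend on GC content and exon length was removed. The part of depth and base composition in these results was not tested beyond the values here. Over all genes, removing the trend moved the calls from 2309 to 1997 in dnFOS against EV and from 165 to 262 in dnCEBP against EV. Of the 7 members called higher in dnFOS against EV, TIPIN, BRIP1, RAD51AP1 and WDR76 were no longer called once the trend on GC content and exon length was removed. Their longest transcripts hold 36.1% to 41.3% G+C. The log2 values of these genes with the trend removed were 0.39, 0.29, 0.21 and 0.28 (adjusted p = 0.0829, 0.0905, 0.302 and 0.0988), in place of 0.50, 0.53, 0.50 and 0.42. HELLS (0.46, adjusted p = 0.000479), PCNA (0.34, adjusted p = 0.0307), SLBP (0.39, adjusted p = 0.00402) and ORC1 (-0.28, adjusted p = 0.0416) were still called. These 4 hold 37.6% to 50.7% G+C, and HELLS, the lowest of them, lies within the range of those lost. UHRF1 was then called as well (0.49, adjusted p = 0.0475). The median G+C of the longest transcript was 44.8% over the members and 47.7% over all genes tested.

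Of 46 further replication genes 45 were tested, and 5 rose and 1 fell in dnFOS against EV. That is 13.3% called, where 15.0% of all genes were, so the share was near the background. In dnFOS against dnCEBP 4 rose (8.89%, where 6.83% of all genes did) and none fell, and none was called in dnCEBP against EV. DUT, which removes dUTP, was at 65.9 and 66.9 CPM in EV, 67.6 and 62.5 CPM in dnCEBP and 85.2 and 111 CPM in dnFOS, and rose by 0.56 ± 0.10 SE (adjusted p = 0.000383) against EV. GINS1, a subunit of the GINS complex, was at 14.9 and 13.3 CPM in EV, 16.2 and 16.3 CPM in dnCEBP and 22.0 and 24.2 CPM in dnFOS, and rose by 0.71 ± 0.14 SE (adjusted p = 0.00105). The calls of DUT and GINS1 against EV held without any 1 library. CDC7, the kinase that fires origins (0.47 ± 0.12 SE, adjusted p = 0.00811), the clamp loader RFC3 (0.40 ± 0.11 SE, adjusted p = 0.00987) and the small RPA subunit RPA3 (0.42 ± 0.14 SE, adjusted p = 0.0315) rose as well, and each was lost without dnFOS replicate 2 (adjusted p = 0.0918, 0.0836 and 0.292) or EV replicate 1 (0.103, 0.0617 and 0.355). CDC7 and RFC3 were also lost with the GC and length trend removed (0.29, adjusted p = 0.0632, and 0.22, adjusted p = 0.106), RFC3 without EV replicate 2, and RPA3 with DESeq2 (0.42, adjusted p = 0.0552). RECQL4, a helicase of replication and repair, fell by 0.57 (adjusted p = 0.0481), and was lost without the same libraries (-0.34, adjusted p = 0.422, and -0.45, adjusted p = 0.268), with library totals (-0.47, adjusted p = 0.121), with DESeq2 (-0.59, adjusted p = 0.0821), with limma-voom (-0.57, adjusted p = 0.0682) and with the trend removed (-0.28, adjusted p = 0.310). The counts against EV were 2 higher and none lower without dnFOS replicate 2 and without EV replicate 1, and 2 higher against dnCEBP without dnCEBP replicate 1. With library totals they were 9 higher and none lower against EV and 10 higher against dnCEBP, and with the trend removed 3 higher and 1 lower against EV and 7 higher against dnCEBP. The median over the 45 was 0.07 in dnFOS against EV, 0.17 with library totals and 0.04 with the trend removed.

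Of the 19 genes of the E2F and RB regulators, 4 rose in dnFOS against EV (21.1%, where 7.24% of all genes rose) and none fell, 3 rose in dnFOS against dnCEBP (15.8%, where 6.83% did), and none was called in dnCEBP. TFDP1, the partner through which E2F factors bind DNA, was at 89.7 and 89.3 CPM in EV, 81.9 and 84.5 CPM in dnCEBP and 114 and 119 CPM in dnFOS. Both dnFOS libraries lay above the other 4, and it rose by 0.38 ± 0.08 SE (adjusted p = 0.00261) against EV and 0.48 ± 0.08 SE (adjusted p = 0.000160) against dnCEBP, which held without any 1 library. RBBP4, an RB-binding histone chaperone (0.36 ± 0.08 SE, adjusted p = 0.00362), TFDP2 (0.34 ± 0.08 SE, adjusted p = 0.00609) and E2F5 (0.51 ± 0.18 SE, adjusted p = 0.0453) rose against EV too. The calls of RBBP4, TFDP2 and E2F5 were each lost without EV replicate 2 (adjusted p = 0.0552, 0.0574 and 0.396), among others, and that of E2F5 also with DESeq2 (0.51, adjusted p = 0.0886) and with the GC and length trend removed (0.30, adjusted p = 0.249). The count against EV was 2 without dnFOS replicate 2 or EV replicate 1, 1 without EV replicate 2, 6 without dnFOS replicate 1 and 8 with library totals, which also gave 8 against dnCEBP. The median of the 19 was 0.20 in dnFOS against EV, 0.17 in dnFOS against dnCEBP and 0.08 in dnCEBP against EV.

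Genes of G2 and mitosis held more falls than rises in dnFOS with TMM scaling. With library totals they held more rises than falls (7 higher and 5 lower against EV, and 11 higher and 6 lower against dnCEBP). All genes moved the same way in that setting. Of all 15395 genes, 2581 were then called against EV, 1905 of them higher (73.8%). Against dnCEBP 2815 were called, 2101 of them higher (74.6%). With TMM, 12 of 54 fell (22.2%, where 7.76% of all genes did) and 4 rose (7.41%, where 7.24% did) against EV, with a median of -0.14, and 11 fell (20.4%, where 7.84% did) and 5 rose (9.26%, where 6.83% did) against dnCEBP. With the GC and length trend removed, 24 fell and 3 rose against EV, with a median of -0.27, and 17 fell and 6 rose against dnCEBP. KIF2C, a microtubule-depolymerising kinesin, was at 135 and 122.7 CPM in EV, 121 and 130.4 CPM in dnCEBP and 89.6 and 83.3 CPM in dnFOS, and lay at -0.57 ± 0.09 SE (adjusted p = 4.74e-05) against EV. CDC20, which activates the anaphase-promoting complex (-0.57 ± 0.10 SE, adjusted p = 0.000203), and its ubiquitin-conjugating enzyme UBE2C (-0.56 ± 0.12 SE, adjusted p = 0.00173) fell as well. LBR, the lamin B receptor of the nuclear envelope (0.73 ± 0.08 SE, adjusted p = 4.79e-07), the histone chaperone ANP32E (0.66 ± 0.10 SE, adjusted p = 4.36e-05) and the heterochromatin protein gene CBX5 (0.38 ± 0.09 SE, adjusted p = 0.00341) rose, and none of these is a spindle or anaphase gene. The calls of KIF2C, CDC20, LBR and ANP32E held without any 1 library, while UBE2C and CBX5 were lost without EV replicate 1 (-0.44, adjusted p = 0.0547, and 0.30, adjusted p = 0.129). The counts of the list moved with the library, to 5 lower without dnFOS replicate 2, 4 lower without EV replicate 1 and 7 lower without EV replicate 2 against EV, and to 6 lower without dnCEBP replicate 2 and 7 lower without dnFOS replicate 2 against dnCEBP. In dnCEBP against EV 1 gene of this list was called, the spindle gene TACC3 (-0.50 ± 0.12 SE, adjusted p = 0.0270), named after its value was seen.

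Clustered histone genes are transcribed in S phase, and SLBP binds their mRNA. Of 67 listed, 54 were tested, and 19 fell (35.2%, where 7.76% of all genes did) and none rose in dnFOS against EV, where SLBP rose, with a median of -0.24. In dnFOS against dnCEBP 4 fell (7.41%, where 7.84% did) and 1 rose, with a median of -0.09. HIST2H2AB was at 67.5 and 54.3 CPM in EV, 59.9 and 50.7 CPM in dnCEBP and 39.4 and 31.6 CPM in dnFOS (-0.77 ± 0.12 SE, adjusted p = 8.38e-05), HIST1H2BE at 100.1 and 76.3 CPM in EV, 88.4 and 72.6 CPM in dnCEBP and 55.9 and 49.0 CPM in dnFOS (-0.75 ± 0.12 SE, adjusted p = 0.000410), and both calls held without any 1 library. Replicate 2 lay below replicate 1 in each of the 3 groups for both. The counts were 4 lower without dnFOS replicate 2, 6 lower without EV replicate 1, 6 lower and 1 higher with library totals, and 6 lower and 1 higher with the GC and length trend removed. Against dnCEBP they were 4 lower and 4 higher with library totals, and 3 lower and 7 higher with the trend removed. In dnCEBP against EV 1 fell, HIST1H4L (-0.40 ± 0.09 SE, adjusted p = 0.0259), named after its value was seen, and the median was -0.17. There 2 of the 54 log2 values lay above 0, where 7648 of all 15395 genes did. In dnFOS against EV 5 did, where 7758 of all genes did. With the replicate block 9 fell in dnCEBP against EV (488 of all genes were called). With that block 30 fell in dnFOS against EV (3172 called), and 12 fell and 1 rose in dnFOS against dnCEBP (3013 called). Over the 4 lists, the 2 calls in dnCEBP were 0 without dnCEBP replicate 2 or EV replicate 1. Histone genes are near-identical copies, and treatment of reads that match several of them was not given, so single values are uncertain. The median of the list in dnFOS against EV was -0.14 with library totals and -0.08 with the trend removed, and against dnCEBP it turned to 0.03 and 0.05.

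**Figure D5:**
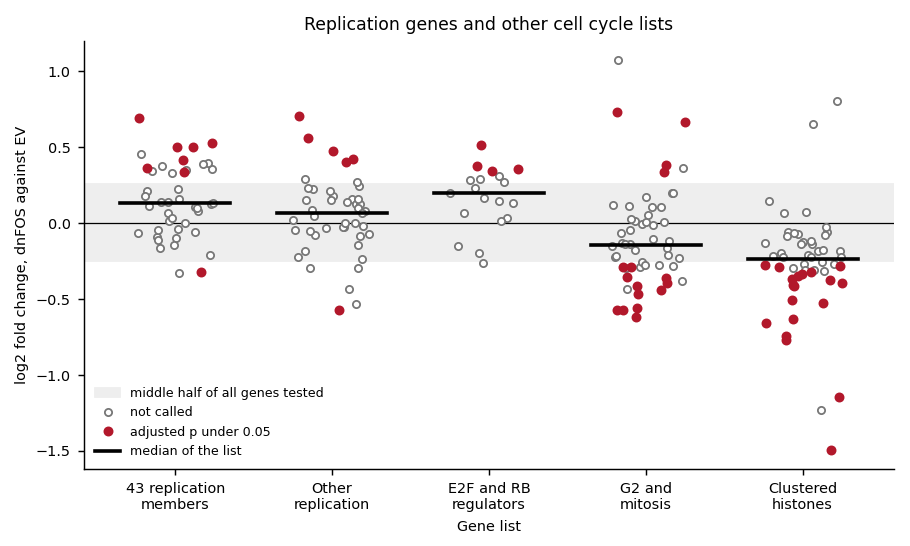
Log2 fold change in dnFOS against EV (y axis) of every tested gene of the 43 members and of 4 further lists (x axis), with red points at an adjusted p under 0.05, black lines at list medians and a grey band from the lower to the upper quartile of all genes tested. The medians fall from 0.20 in the E2F and RB regulators and 0.13 in the members to -0.14 in G2 and mitosis and -0.24 in the clustered histones.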

How the data were processed

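RNA was measured by RNA-seq in 6 libraries of the human AML cell line KO52, 2 each labelled dnCEBP, dnFOS and EV. Per the labels, the authors depleted ribosomal RNA, used 15 cycles of PCR and sequenced paired-end reads of 75 bases. The authors deposited 1 table of whole-number counts for each library, not normalized, with 60612 gene IDs. The submitters' processing notes name Trimmomatic, HISAT2, featureCounts and Subread and the build hg38. Versions, the annotation, use of strand and the treatment of reads matching several genes were not given in the sources used here, so genes that share exons or sequence with another may be miscounted.

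IDs were matched to GENCODE 29 on GRCh38 (58394 matched), which may not be the authors' annotation. Its coordinates are 1-based. Exon length and shared exon bases are those of the union of exons, and GC content is that of the gene's longest transcript. A gene with over 10% of its exon bases in another gene is called uncertain. The main test was that of edgeR 4.0.16 (R 4.3.3). Genes were kept with filterByExpr (minimum count 10), leaving 15395 of 27870 with at least 1 count. TMM factors were 0.956 to 1.05. All 6 libraries entered a single robust quasi-likelihood fit with group means (3 residual degrees of freedom, common biological coefficient of variation 0.0961). The 3 contrasts were tested two-sided, the Benjamini-Hochberg adjustment covered every gene in the fit, and an adjusted p under 0.05 was a call. Standard errors come from the fold change and its F statistic. At 3 counts the floor was 0.111 to 0.290 CPM. The median SE of a member's log2 fold change was 0.126 in dnFOS against EV and 0.122 in dnCEBP against EV.

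The 43 members, the further lists and the tests were chosen with earlier results of these data known. Values per library are given for members called in any comparison and for MCM2 to MCM7, PCNA, CDC6, CDT1, GMNN, CCNE2, SLBP, RRM2 and TYMS, and the rest by role. From each further list, genes called in any comparison could be named, at most the 6 with the smallest adjusted p. Alternatives were other scalings, filters and tests (DESeq2 1.42.0 and limma-voom, limma 3.58.1), features over 1% of counts left out, a replicate block, removal of a trend on GC content and exon length (natural splines of 5 degrees of freedom fitted in each library), fits to the 4 libraries compared, and fits without each library. The code was tested on simulated data. Promoter letters were searched in RefSeq windows of GRCh38.p14. Some of the cell type markers looked up are not reported here.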

Additional observations from a re-analysis of the deposited data

How the results depend on the processing

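With 2 libraries per group, a fit without 1 library leaves that group with 1, which is then assumed to vary like the others. Over the members in the 3 comparisons, 2068 values stayed on their side of the threshold under an alternative, 64 passed it newly, 61 lost it and 0 called values reversed. Of the 2068, 98 changed sign, in 40 of 129 member comparisons, none of them called. Depth limits the genes near 10 CPM most, and the cause of each change below was not tested.

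The count of members called in dnCEBP against EV rose from 0 to 1, MCM6, when the GC and length trend was removed and when only the 4 libraries compared were fitted, and ran from 0 to 1 without 1 library, where the call was MCM6 without either dnFOS library and UHRF1 without dnCEBP replicate 1. In dnFOS against EV the 8 calls became 15 with library totals and 5 with the trend removed, and ran from 2 (without EV replicate 2) to 9 (without either dnCEBP library). The median of the members there became 0.23 with library totals, and ran from 0.08 to 0.17 without 1 library. In dnFOS against dnCEBP the 9 calls became 17 with library totals and 14 with the trend removed, and ran from 3 to 9 without 1 library. The median became 0.26 with library totals, beside a median of 0.14 over all genes, and ran from 0.13 to 0.21. The pathway genes called in the 4 further lists ran from 0 to 5 (2 with all libraries) in dnCEBP against EV, from 16 to 49 (45) in dnFOS against EV and from 17 to 31 (28) in dnFOS against dnCEBP, where library totals and removal of the trend each gave 43.

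The correlation of deviations of same-numbered libraries over all 15395 genes tested was 0.017, 0.028 and 0.088 for the 3 pairs of groups. Over all genes replicate numbers thus did not pair the libraries, but this measure cannot show that for the genes of these lists. Replicate 2 lay below replicate 1 in each of the 3 groups for HIST2H2AB, HIST1H2BE and further clustered histones, HIST1H2AC and HIST1H3G among them. The same order held for members including MCM2, MCM3, MCM4, MCM5 and MCM7. GMNN had the opposite order in all 3 groups, and other members, MCM6 among them, had no common order. The main fit held no term for replicate number. The replicate block changed the clustered histone counts, as given with that list. With the replicate block, members called were 1, 16 and 13 in dnCEBP against EV, dnFOS against EV and dnFOS against dnCEBP, and pathway genes called were 12, 63 and 42. With the trend removed and the replicate block, they were 1, 5 and 14 members and 7, 52 and 53 pathway genes.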
